A study of Homo sapiens with 2 samples.

Results

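The family of miR-130, miR-301 and miR-454 was examined in small RNA libraries from the established cell line MDA-MB-231, which derives from a human breast carcinoma without hormone receptors or HER2 amplification. One library came from cells transduced with shELOVL5, a short hairpin RNA against the fatty acid elongase gene ELOVL5, and 1 from cells transduced with the control hairpin shLuc. Both groups therefore carried a hairpin RNA, and the labels name no clone, number of cultures or time after transduction. The values were the deposited read counts per mature microRNA. The family was given by name as 8 mature microRNAs of the 2656 in the table, namely hsa-miR-130a-3p, hsa-miR-130b-3p, hsa-miR-130b-5p, hsa-miR-301a-3p, hsa-miR-301a-5p, hsa-miR-301b-3p, hsa-miR-454-3p and hsa-miR-454-5p. All 8 were detected in both libraries, and together they took 6953 of 6811811 counts (0.102%) in shELOVL5 and 7677 of 7109272 counts (0.108%) in shLuc. Each condition had a single library, so the spread between cultures is unknown and no difference could be tested against it. The intervals given are exact 95% counting intervals and no p-value is given.

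A microRNA hairpin yields a 5p and a 3p strand, and the strand loaded into Argonaute recognises messenger RNAs mainly through its seed, bases 2 to 8. MicroRNAs with 1 seed can act on the same sites. The 3p strands of this family are known repressors of TGFBR2, the type II receptor that binds TGF-beta, and of SMAD4, the shared mediator that carries the receptor signal to the nucleus. In breast carcinoma cells TGF-beta signalling is known for its part in epithelial-mesenchymal transition and metastasis.

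The mature sequences are shown because the seed decides which members are summed below. RefSeq (GRCh38.p14) held 7 of the 8, all but hsa-miR-130a-3p. Capitals mark bases 2 to 8, read 5′ to 3′. The 3p strands were:
hsa-miR-130b-3p: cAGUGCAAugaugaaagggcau
hsa-miR-301a-3p: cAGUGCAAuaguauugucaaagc
hsa-miR-301b-3p: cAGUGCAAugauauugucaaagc
hsa-miR-454-3p: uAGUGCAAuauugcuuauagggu
The 5p strands were:
hsa-miR-130b-5p: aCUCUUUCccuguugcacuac
hsa-miR-301a-5p: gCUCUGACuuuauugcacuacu
hsa-miR-454-5p: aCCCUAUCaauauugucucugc

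All 4 of these 3p strands shared the seed AGUGCAA, while the 5p strands had 3 different seeds. RefSeq also held no sequence for hsa-miR-301b-5p, the other arm of the miR-301b hairpin, so its seed was not compared with theirs. hsa-miR-130b-5p and hsa-miR-301a-5p hold UUGCACU, the complement of the family seed, which lies opposite it in the hairpin. The letters UUGCACU were not in hsa-miR-454-5p. hsa-miR-301a-3p and hsa-miR-301b-3p differed at 2 of 23 bases, A10G and G11A, counted from the 5′ end with the miR-301a base first. hsa-miR-130b-3p shared its first 12 bases with hsa-miR-301b-3p but differed from it at 9 of the 22 bases compared. Reads too short to cover the differing bases could be assigned to either strand. The sources used here do not say how reads matching several microRNAs were counted. The table also held hsa-miR-3666 and hsa-miR-4295, which carry the same seed. Each was listed at 0 counts, so levels of at most 0.435 CPM (shELOVL5) and 0.427 CPM (shLuc) remain possible for either.

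The 5 hairpins come from 3 places in the genome (GENCODE release 29, GRCh38). MIR454 (chromosome 17, 59137758 to 59137872) and MIR301A (chromosome 17, 59151136 to 59151221) lie 13263 bases apart on the minus strand, in introns of SKA2, which encodes a kinetochore protein. MIR301B (chromosome 22, 21652981 to 21653058) and MIR130B (chromosome 22, 21653304 to 21653385) lie 245 bases apart on the plus strand. A noncoding transcript spans both, with MIR130B overlapping an exon and MIR301B in an intron. MIR130A (chromosome 11, 57641198 to 57641286, plus strand) lies in an intron of a noncoding transcript, and its nearest coding gene is YPEL4, at 3801 bases.

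The hairpins of miR-130b and miR-454 are shown because miR-130b is led by its 5p arm and miR-454 by its 3p arm. Capitals mark the 5p arm and then the 3p arm.
MIR130B: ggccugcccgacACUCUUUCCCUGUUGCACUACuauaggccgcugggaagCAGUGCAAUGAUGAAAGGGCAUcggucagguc
MIR454: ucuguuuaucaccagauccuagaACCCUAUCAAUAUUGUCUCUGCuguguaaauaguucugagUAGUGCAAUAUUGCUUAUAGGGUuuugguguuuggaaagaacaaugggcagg

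The libraries had similar depth, and 1 count was worth 0.145 CPM (shELOVL5) or 0.142 CPM (shLuc). CPM here means counts per 1000000 counts after TMM scaling. The label of the cell line was set against microRNAs known from it. Of the 4 listed as high in it, hsa-miR-100-5p led with 1488025 counts in shELOVL5, against 1745204 in shLuc. Of the 2 epithelial microRNAs listed as low, hsa-miR-141-3p had 7 counts in shELOVL5 and 3 in shLuc. The other, hsa-miR-200c-3p, stood at 65.2 CPM (shELOVL5) and 66.5 CPM (shLuc), so it was not near 0. Of the 7 blood cell microRNAs listed, hsa-miR-144-3p and hsa-miR-223-3p had 0 counts in both libraries. The summed blood list had 331 CPM (shELOVL5), against 398 CPM (shLuc), nearly all of it hsa-miR-486-5p. Both strands of miR-142, known from white blood cells, went the other way. hsa-miR-142-3p had 45 counts in shELOVL5 and 2 in shLuc, a ratio of 22.9 (5.98 to 195), and hsa-miR-142-5p had 84 in shELOVL5 and 6 in shLuc, a ratio of 14.3 (6.28 to 39.9). The 5 endothelial and stromal microRNAs summed to 766 CPM (shELOVL5), against 638 CPM (shLuc), nearly all of it hsa-miR-126-3p. The 3 muscle microRNAs summed to 24.8 CPM (shELOVL5), against 21.2 CPM (shLuc), with hsa-miR-206 at a ratio of 2.29 (1.71 to 3.08) and hsa-miR-1-3p at 0.178 (0.0932 to 0.317). The liver microRNA hsa-miR-122-5p had 7.68 CPM (shELOVL5), against 7.83 CPM (shLuc). The part of other cells in the family's counts was not tested.

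The 3p strands ranged over more than an order of magnitude. hsa-miR-454-3p, whose hairpin lies in an intron of SKA2, was the most abundant, with 2324 counts in shELOVL5 (337 CPM), against 2344 in shLuc (334 CPM). hsa-miR-130a-3p, known in blood vessel growth, had 924 counts in shELOVL5 (134 CPM), against 796 in shLuc (113 CPM). hsa-miR-130b-3p had 508 counts in shELOVL5 (73.7 CPM), against 529 in shLuc (75.3 CPM). The order of these 3 was the same in both libraries, and their levels lay further apart than counting error.

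The miR-301 strands were the rarest. hsa-miR-301b-3p had 67 counts in shELOVL5 (9.71 CPM), against 79 in shLuc (11.3 CPM). hsa-miR-301a-3p had 56 counts in shELOVL5 (8.12 CPM), against 59 in shLuc (8.40 CPM). The counting intervals of these 2 neighbours in abundance overlapped in each library. No family member was among the leading microRNAs. hsa-miR-454-3p ranked 105th by counts in shELOVL5 and 102nd in shLuc.

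The most abundant member of all was a 5p strand. hsa-miR-130b-5p had 2537 counts in shELOVL5 (368 CPM), against 3249 in shLuc (463 CPM), and ranked 99th in shELOVL5 and 92nd in shLuc. hsa-miR-301a-5p had 292 counts in shELOVL5 (42.3 CPM), against 311 in shLuc (44.3 CPM). hsa-miR-454-5p had 245 counts in shELOVL5 (35.5 CPM), against 310 in shLuc (44.2 CPM). Each of the 3 listed 5p strands had fewer counts in shELOVL5. The 2 other arms of these hairpins, hsa-miR-130a-5p and hsa-miR-301b-5p, had 37 and 33 counts in shELOVL5 and 37 and 30 counts in shLuc.

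**Figure D1:**
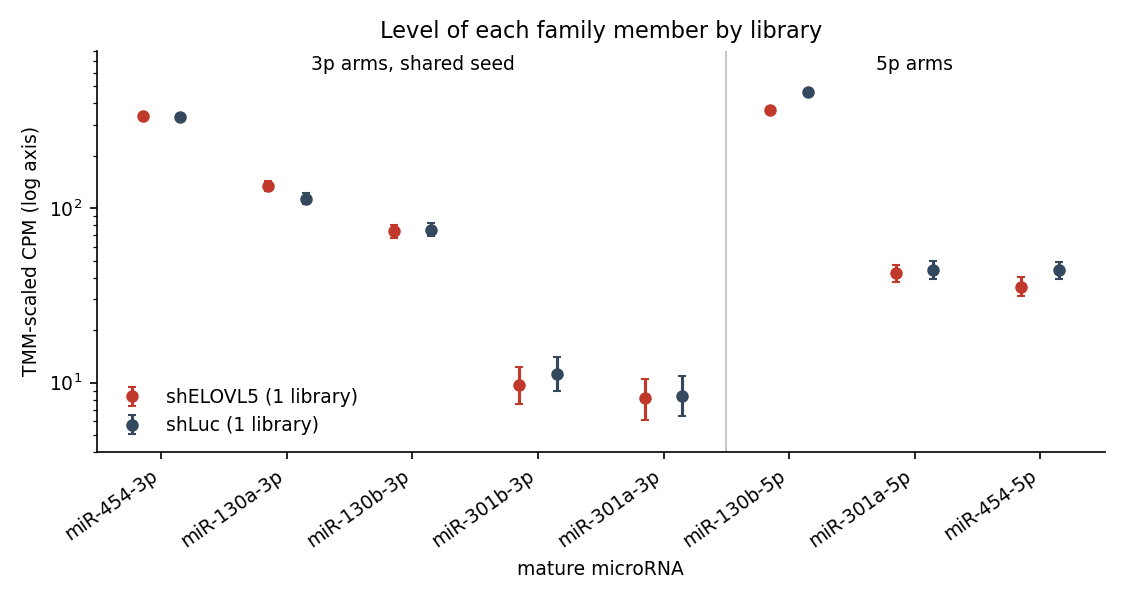
TMM-scaled CPM of each member on a log axis, for the shELOVL5 library (red) and the shLuc library (dark blue), with exact 95% Poisson intervals of the counts. hsa-miR-130b-5p stands above every 3p strand in both libraries, at 368 CPM in shELOVL5 and 463 CPM in shLuc, and the miR-301 3p strands lie near 10 CPM.

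The first comparison asked how each member differed between cells with shELOVL5 and cells with shLuc. A microRNA was called expressed at a mean of at least 50 CPM and at least 100 counts over both libraries, which held for 191 microRNAs and for 4 of the 8 members. None of the 4 was 2-fold higher, against 1.57% of the expressed microRNAs, and none was 2-fold lower, against 0%. None passed 1.5-fold either, against 3.14% of the expressed microRNAs higher and 0.524% lower. The median log2 ratio was -0.0096 over the 4 expressed members, -0.057 over all 8 members and -0.033 over the 191 expressed microRNAs. All 8 members summed had a ratio of 0.922 (0.892 to 0.953).

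Among the 3p strands, hsa-miR-130a-3p had the highest ratio of shELOVL5 over shLuc, 1.18 (interval 1.07 to 1.30). It was the only expressed member whose interval lay above 1, which held for 31.9% of the expressed microRNAs. hsa-miR-454-3p had a ratio of 1.01 (0.953 to 1.07) and hsa-miR-130b-3p one of 0.978 (0.864 to 1.11). That of hsa-miR-130b-3p was the median of the 191. The 2 rare strands had wide intervals, 0.658 to 1.42 around 0.966 for hsa-miR-301a-3p and 0.614 to 1.21 around 0.863 for hsa-miR-301b-3p. At this depth a difference smaller than these bounds was not detectable for either. hsa-miR-130a-3p also differed from its close relative. Relative to hsa-miR-130b-3p its count was higher in shELOVL5 than in shLuc by a ratio of 1.21 (1.03 to 1.41), which needs no scaling. This pair was not among those planned, and reads shared between these strands could alter the ratio.

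Among the 5p strands, hsa-miR-130b-5p had the lowest ratio of any member, 0.795 (0.754 to 0.838), or 1.26-fold lower in shELOVL5. It was the only expressed member whose interval lay below 1, which held for 41.9% of the expressed microRNAs. Of the 191, 9.42% had a still lower ratio. hsa-miR-454-5p, below the expression limit, had a ratio of 0.805 (0.678 to 0.954). hsa-miR-301a-5p stood at 0.956 (0.812 to 1.12), with an interval that holds 1.

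**Figure D2:**
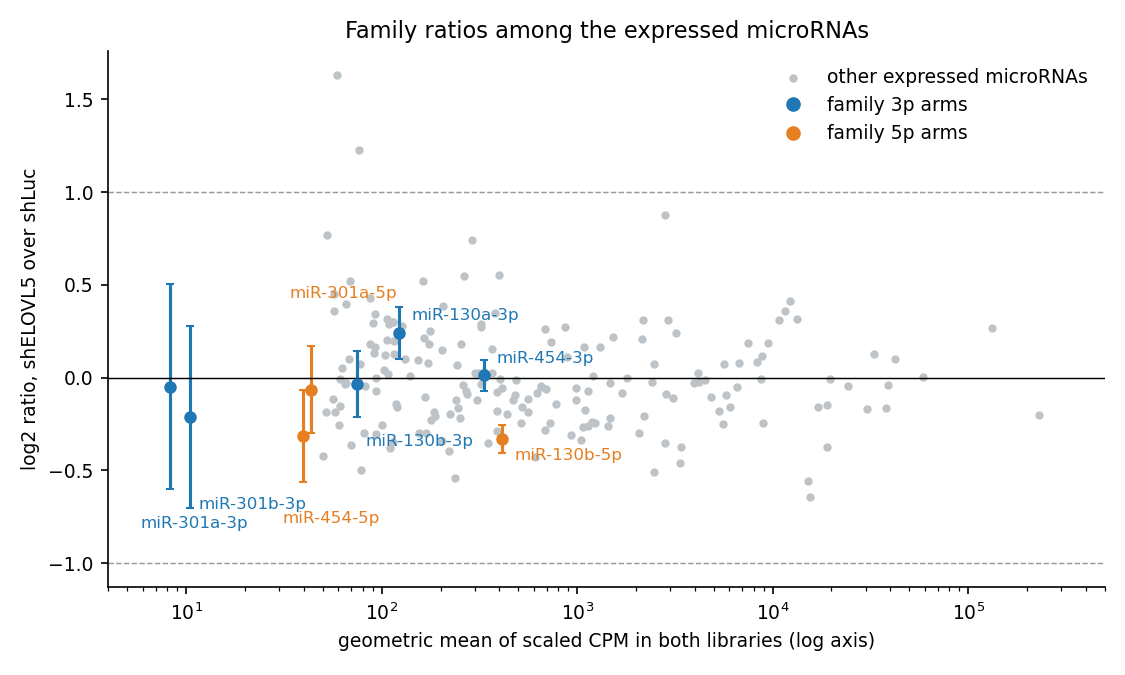
Log2 ratio of shELOVL5 over shLuc against the geometric mean of the scaled CPM (log axis) for the family's 3p strands (blue) and 5p strands (orange) with 95% counting intervals, and for the other expressed microRNAs (grey; hsa-miR-504-5p, at a log2 ratio of 7.06, lies beyond the axis). Dashed lines mark 2-fold; every member lies between them, with hsa-miR-130a-3p highest at 0.24 and hsa-miR-130b-5p lowest at -0.33.

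The second comparison summed the strands with the shared seed, the quantity that can pair with a TGFBR2 site. The 5 listed 3p strands together had 3879 counts in shELOVL5 (562 CPM), against 3807 in shLuc (542 CPM). These were 0.0569% of all counts in shELOVL5 (0.0552 to 0.0588%) and 0.0535% in shLuc (0.0519 to 0.0553%). The ratio was 1.04 (0.992 to 1.08), an interval that holds 1. Without hsa-miR-130a-3p it was 0.999 (0.949 to 1.05). By contrast the 3 listed 5p strands had 3074 counts in shELOVL5 (446 CPM), against 3870 in shLuc (551 CPM), a ratio of 0.809 (0.771 to 0.848). The 3p sum was 1.26 times the 5p sum in shELOVL5 and 0.984 times in shLuc, a ratio of 1.28 (1.20 to 1.37). Most of the 5p sum was hsa-miR-130b-5p, and without it, a sum chosen after seeing the data, the 5p ratio was 0.880 (0.783 to 0.990).

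Within the 3p sum, hsa-miR-454-3p supplied 59.9% in shELOVL5 (58.4 to 61.5%) and 61.6% in shLuc (60.0 to 63.1%). hsa-miR-130a-3p supplied 23.8% in shELOVL5 (22.5 to 25.2%) and 20.9% in shLuc (19.6 to 22.2%), an odds ratio of 1.18 (1.06 to 1.32). hsa-miR-130b-3p supplied 13.1% in shELOVL5 and 13.9% in shLuc. The miR-301 strands together supplied 3.17% in shELOVL5 and 3.62% in shLuc. The order of the members was thus alike in both libraries, and hsa-miR-130a-3p was the only one whose share had an odds ratio interval without 1. When hsa-miR-130a-3p and hsa-miR-130b-3p were counted together, since their reads may be shared, the interval of their odds ratio ran from 0.997 to 1.20 and held 1. RefSeq held no sequence for hsa-miR-130a-3p, so the sharing of reads was not examined.

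The seed was also set beside its nearest relatives in letters. Seed groups were summed over the 2367 microRNAs of the table that matched a RefSeq sequence, with hsa-miR-130a-3p added to its family by name. By counts the AGUGCAA group ranked 54th of 1055 groups with a count. The miR-17 group (seed AAAGUGC), which is also known to repress TGFBR2, was far more abundant, at 12755 CPM in shELOVL5 and 11860 CPM in shLuc. Its ratio was 1.08 (1.07 to 1.09), but its most abundant member, hsa-miR-93-5p, had a ratio of 0.938 (0.925 to 0.951). Its 4 other expressed members lay between 1.18 (hsa-miR-17-5p) and 1.35 (hsa-miR-106a-5p), so no expressed member was at the ratio of the sum. The miR-148 and miR-152 group (seed CAGUGCA), led by hsa-miR-148a-3p in shELOVL5 and hsa-miR-148b-3p in shLuc, had 2979 CPM in shELOVL5, against 3079 CPM in shLuc, and a ratio of 0.968 (0.949 to 0.986). The miR-19 group (seed GUGCAAA), led by hsa-miR-19b-3p, had 89.5 CPM in shELOVL5 and 71.5 CPM in shLuc, a log2 ratio of 0.32 (0.15 to 0.50). The miR-302 group (seed AAGUGCU), known from embryonic stem cells, had 50 counts in shELOVL5, against 42 in shLuc, most of them hsa-miR-372-3p, and a ratio of 1.21 (0.788 to 1.87). The interval of the family's 3p sum overlapped those of the miR-17 and miR-302 groups and lay above that of the miR-148 and miR-152 group and below that of the miR-19 group.

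**Figure D3:**
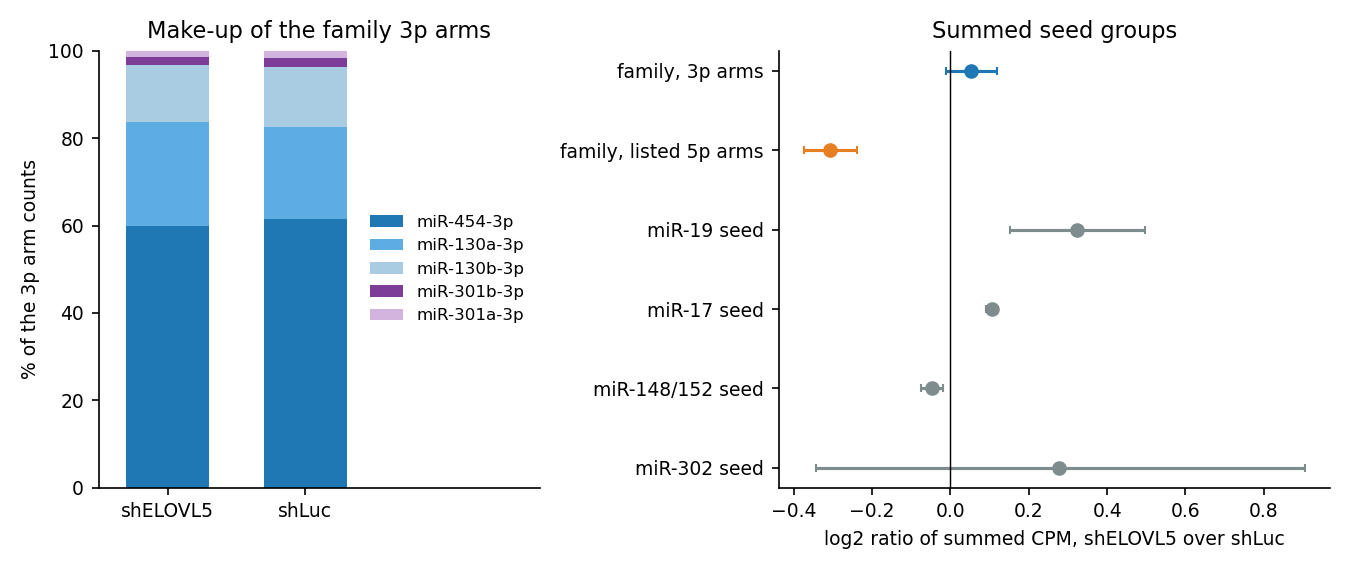
Left, share of the summed 3p counts supplied by each of the 5 strands in each library; hsa-miR-454-3p supplies 59.9% in shELOVL5 and 61.6% in shLuc. Right, log2 ratio of summed CPM of shELOVL5 over shLuc with 95% counting intervals for the family's 3p and listed 5p strands and for 4 related seed groups; the 3p sum lies at 0.053 and the 5p sum at -0.31.

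The third comparison concerned the balance of the 2 arms of each hairpin, which needs no scaling between libraries. The family split into hairpins of opposite dominance. In miR-130b the 5p arm took 83.3% of the hairpin's counts in shELOVL5 (81.9 to 84.6%) and 86.0% in shLuc (84.9 to 87.1%). In miR-301a it took 83.9% in shELOVL5 (79.6 to 87.6%) and 84.1% in shLuc (79.9 to 87.6%). In the other 3 hairpins the 3p arm led in both libraries. The 5p arm took 33.0% of miR-301b in shELOVL5 and 27.5% in shLuc. It took 9.54% of miR-454 in shELOVL5 (8.43 to 10.7%) and 11.7% in shLuc (10.5 to 13.0%). It took 3.85% of miR-130a in shELOVL5 and 4.44% in shLuc. The neighbours miR-454 and miR-301a, and likewise miR-130b and miR-301b, thus had opposite leading arms. Over the 190 hairpins with at least 100 counts and both arms in both libraries, 58.9% had more 5p than 3p counts.

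Both miR-130b and miR-454 had a lower ratio of 5p to 3p counts in shELOVL5 than in shLuc. In miR-130b the ratio was 4.99 in shELOVL5 and 6.14 in shLuc, a change of 0.813 (0.711 to 0.930). In miR-454 it was 0.105 in shELOVL5 and 0.132 in shLuc, a change of 0.797 (0.665 to 0.955). In both hairpins the 3p strand had a ratio near 1 and the 5p strand one near 0.8. The change was 0.989 (0.651 to 1.51) in miR-301a, 0.861 (0.526 to 1.41) in miR-130a and 1.30 (0.687 to 2.45) in miR-301b, all with intervals that hold 1. An interval below 1 was found in 14.2% of the 190 hairpins and one above 1 in 14.7%. The log2 changes of miR-454 and miR-130b were -0.33 and -0.30, and the lower quartile over the 190 was -0.30. Shifts of this size were therefore common among the 190 hairpins in these 2 libraries. Some of the 190 yield the same mature strands and so repeat the same counts, and some had few counts on 1 arm.

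**Figure D4:**
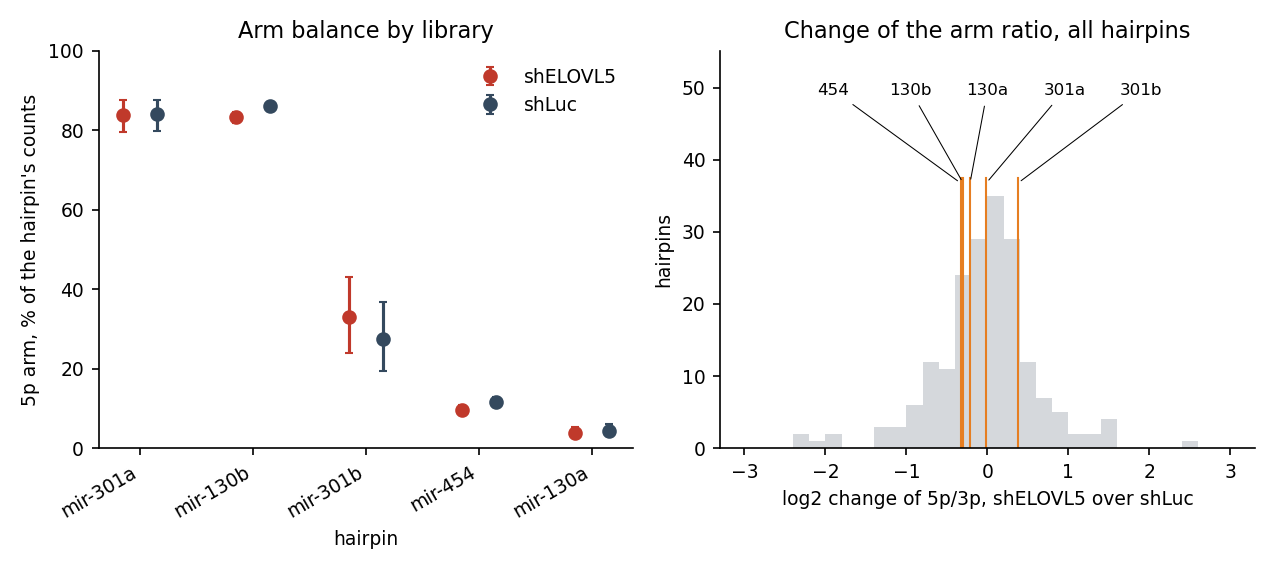
Left, share of each hairpin's counts on the 5p arm with exact 95% binomial intervals, for shELOVL5 (red) and shLuc (dark blue). Right, log2 change of the 5p to 3p ratio, shELOVL5 over shLuc, for 190 hairpins (grey bars) and for the 5 family hairpins (orange lines); miR-454 and miR-130b lie at -0.33 and -0.30.

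The arms were also summed by locus, a grouping chosen after the values were seen. The miR-301b and miR-130b locus on chromosome 22 had 3145 counts in shELOVL5 and 3887 in shLuc, a ratio of 0.824 (0.786 to 0.864). The miR-454 and miR-301a locus in SKA2 had 2917 counts in shELOVL5 and 3024 in shLuc, a ratio of 0.982 (0.933 to 1.03). The miR-130a hairpin on chromosome 11 had 961 counts in shELOVL5 and 833 in shLuc, a ratio of 1.17 (1.07 to 1.29). The chromosome 22 sum was mostly hsa-miR-130b-5p. Between neighbours, the 3p strands did not differ beyond counting error. The log2 ratio of hsa-miR-301b-3p minus that of hsa-miR-130b-3p was -0.18 (-0.70 to 0.34), and that of hsa-miR-301a-3p minus that of hsa-miR-454-3p was -0.063 (-0.62 to 0.50).

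The fourth comparison placed the family among 30 other microRNAs known to repress TGF-beta receptors or SMAD proteins, of which 21 were expressed. Among the 21, 10 had an interval above 1 and 6 one below 1, beside 31.9% and 41.9% of the expressed microRNAs. Their median log2 ratio was 0.023, against -0.033 over all 191. The most abundant, hsa-miR-21-5p, is a known repressor of TGFBR2 and had a log2 ratio of 0.27. Next came 4 let-7 strands, hsa-let-7i-5p (log2 ratio 0.0039), hsa-let-7a-5p (0.10), hsa-let-7f-5p (0.12) and hsa-let-7g-5p (-0.0067). The let-7 strands are known to repress the type I receptor gene TGFBR1. Of the 21, 1 was 1.5-fold higher and 0 were 1.5-fold lower, against 3.14% and 0.524% of the expressed microRNAs. The 1 was hsa-miR-146a-5p, a known repressor of SMAD4, with 26231 counts in shELOVL5 and 14528 in shLuc, a ratio of 1.84 (1.80 to 1.88). Summed, the list had 360011 CPM in shELOVL5 and 330831 CPM in shLuc, while the family's 3p strands summed to 562 CPM in shELOVL5, against 542 CPM in shLuc. The expressed microRNAs outside the family nearest to the 3p sum in log2 ratio (0.053) were hsa-miR-345-5p at 0.070 and hsa-miR-324-3p at 0.052. Those nearest to hsa-miR-301a-3p (-0.050) were hsa-miR-320c at -0.047 and hsa-miR-191-5p at -0.051.

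The sites that the 3p strands can pair with were located as sequence context, since messenger RNA was not measured. The motif searched was TTGCACT, the complement of the family seed, on the strand of the message only, in 1 principal transcript per coding gene of GENCODE release 29. Of 18879 genes, 12.7% held it in their 3′ UTR, and in 2.56% it was followed by the A known to favour Argonaute binding. Of 13 listed genes of TGF-beta signalling, lipid handling and other roles, 9 held it. The list was chosen by name and includes known targets of the family such as TGFBR2 and SMAD4. The 9 of 13 therefore cannot be compared with the 12.7% of all genes. The median 3′ UTR of the 13 was longer, at 3313 bases against 878 over all genes, though that of PPARG had only 211. TGFBR2 and SMAD4 each held 2 sites and TGFBR1 held 1, and these are shown because the receptors and SMAD4 form the core of the pathway. Capitals mark the motif, with 14 bases before it and 1 after it, on the strand of the message.
TGFBR2, chr3:30691851-30691872, plus strand: atagccaataacatTTGCACTt
TGFBR2, chr3:30692151-30692172, plus strand: cagctatgaccacaTTGCACTt
SMAD4, chr18:51079808-51079829, plus strand: attttttttttcttTTGCACTt
SMAD4, chr18:51083620-51083641, plus strand: gttgggccagacagTTGCACTc
TGFBR1, chr9:99152643-99152664, plus strand: gcttatttttattcTTGCACTg

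None of these 5 was followed by A. The BMP type I receptor gene ACVR1 held 2 sites, of which 1 was followed by A, and PPARG, the adipocyte transcription factor, held 1 that was. BMPR2, SMAD5, SMAD2 and ABCA1 each held 1 site. That of SMAD2 lay at base 19067 of a 3′ UTR annotated at 32870 bases, against a median of 878 over all genes. The letters TTGCACT were not in the window searched for ELOVL5, SMAD3, SMAD7 or SKA2, the host of miR-301a and miR-454. A match is a stretch of letters and does not show binding.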

How the data were processed

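Small RNA was sequenced from MDA-MB-231 cells with shELOVL5 or shLuc, 1 library each. Per the labels' protocols, a miRNeasy kit gave the RNA and a NEBNext small RNA kit the libraries. The labels' extraction text speaks of tumor material, while the other labels name the cell line. The authors deposited unnormalized read counts for each pair of mature microRNA and precursor. The submitters' processing notes name Bowtie 1.1.1, cutadapt 2.10 and FastQC 0.11.9. For the counter, its annotation and reads with several matches, details were not given in the sources used here. No unique molecular identifiers are described, so intervals cover counting error only.

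The 2886 lines held 2656 mature microRNAs, of which 166 had several precursors. The highest copy was kept, and each member had 1 precursor. TMM factors (edgeR 4.0.16, R 4.3.3) were 1.01 for shELOVL5 and 0.988 for shLuc. Ratios had exact Clopper-Pearson intervals and arm ratios exact conditional intervals (scipy 1.17.1), tested on simulated data. A count of 0 allows 3 counts. The text names the 8 members, their other arms and seed relatives, the most abundant of each seed group, and of the TGF-beta list the 5 most abundant and any 1.5-fold different, besides those nearest in ratio. Cell type markers and the other miR-17 strands were named after their values were seen. Some genes planned for the site search are not reported here. The members and lists were chosen with earlier results of these data known. Values were recomputed with DESeq2 1.42.0 size factors, total counts, sums over precursors, 5 CPM added, other abundance and fold limits, and other groupings of members.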

Additional observations from a re-analysis of the deposited data

How the results depend on the processing

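No paired analysis was possible because shELOVL5 and shLuc were sequenced once each, so leaving out a library was not possible either. Total count scaling moved every log2 ratio by 0.036 and DESeq2 size factors (1 for each library) by -0.026. The log2 ratio of the summed 3p strands ranged from -0.0013 without hsa-miR-130a-3p to 0.089 under total count scaling, and that of the listed 5p strands from -0.33 to -0.27 over the scalings. Without hsa-miR-130b-5p the 5p sum was -0.18; the sum of the 5p strands and its alternatives were chosen after seeing the data. The signs of hsa-miR-454-3p (-0.012 with DESeq2 size factors) and hsa-miR-130b-3p (0.0032 with total counts) turned, within intervals that hold 0. No member was 1.5-fold different. With the narrowest fold limit tried 1 expressed member was lower, hsa-miR-130b-5p. With a mean of at least 10 CPM 2 members had an interval below 1, since hsa-miR-454-5p then passed the limit. The share of all expressed microRNAs was not computed under either of these limits, so neither count shows whether the family stood out. Under the main abundance limit 41.9% of the expressed microRNAs had an interval below 1. Of 79 values recomputed, 76 stayed within the interval or count given. These were not separate checks. The sum over precursors left the members' own counts unchanged, and each scaling moved all log2 ratios by the same amount. The median of the TGF-beta list was 0.047 at the 10 CPM limit and -0.00013 without the miR-17 group. Depth limits the miR-301 3p strands, and the lack of replicates limits every comparison.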
